A study of Mus musculus with 2 samples.

Results

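The 10 genes described here encode transcription regulators that build and maintain photoreceptors, the light-sensing rods and cones of the retina: Crx, Otx2, Nrl, Nr2e3, Esrrb, Samd7, Neurod1, Prdm1, Mef2d and Rorb. They were taken by name from a table of 21887 protein-coding genes, and all 10 were found. Chromatin accessibility had been measured by ATAC-seq, in which the enzyme Tn5 cuts accessible DNA and adds adapters at the cut, and the count of such insertions measures how open a piece of DNA was. The tissue was flash-frozen neural retina of adult C57BL/6 littermates, with the genotype Gabra3 knockout in 1 library and wild type in the other. Gabra3 encodes a subunit of GABA-A receptors, which are inhibitory chloride channels. The labels name no promoter, Cre line or allele for the knockout, and do not say how many retinas a library held. Each genotype had 1 library of 20000 nuclei and 75 bp single-end reads, with 9038110 aligned knockout reads and 9170838 wild-type reads. After filtering, 7646373 knockout and 7635799 wild-type insertions remained, so raw counts of the libraries can be set side by side.

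As background, Otx2 and Crx are related homeodomain proteins: Otx2 commits retinal precursors to the photoreceptor fate and switches on Crx, and Crx with its partners drives most photoreceptor genes. Nrl, a basic leucine zipper protein, directs precursors to become rods and activates Nr2e3, a nuclear receptor that keeps cone genes silent in rods. Rorb acts upstream of Nrl, Prdm1 holds back the bipolar cell fate, Neurod1 is a basic helix-loop-helix factor of photoreceptor differentiation and survival, and Mef2d and Esrrb act in maturing or adult photoreceptors, Mef2d as a partner of Crx. Samd7 is a Polycomb-associated repressor of non-rod genes.

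The start sites of these genes are shown first, because the results turn on which of them were open. RefSeq (GRCm38.p6) promoter windows, 250 bases before to 50 after a transcription start, were found for 10 of the 10 genes, with 15 starts in all. Windows not printed here are those of Prdm1 and Mef2d, with 1 open start each, those of Rorb, and the remaining ones of Otx2 and Esrrb. The windows printed here are those of 5 genes with 1 annotated start each that was open, the open starts of Otx2 and Esrrb, and an outer start of Otx2 with 14 knockout and 36 wild-type insertions within 500 bp. They lie at chr7:15879906-15880205 (Crx, minus strand), chr14:55524203-55524502 (Nrl, minus), chr9:59950030-59950329 (Nr2e3, minus), chr3:30746043-30746342 (Samd7, plus), chr2:79456587-79456886 (Neurod1, minus), chr12:86421394-86421693 (Esrrb inner start, plus), chr14:48665060-48665359 (Otx2 inner start, minus) and chr14:48667459-48667758 (Otx2 outer start, minus). Each reads 5′ to 3′ along its gene, and capitals mark, on either strand, the letters TAATCC (core of Crx and Otx2 sites), TGCTGA (part of an Nrl-type site) and the E-boxes CAGATG and CAGCTG that basic helix-loop-helix factors bind.
Crx: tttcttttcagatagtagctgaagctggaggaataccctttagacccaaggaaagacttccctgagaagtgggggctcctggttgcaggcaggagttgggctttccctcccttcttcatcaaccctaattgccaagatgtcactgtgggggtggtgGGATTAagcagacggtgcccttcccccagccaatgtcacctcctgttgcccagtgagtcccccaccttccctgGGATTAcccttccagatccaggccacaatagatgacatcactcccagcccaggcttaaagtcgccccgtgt
Nrl: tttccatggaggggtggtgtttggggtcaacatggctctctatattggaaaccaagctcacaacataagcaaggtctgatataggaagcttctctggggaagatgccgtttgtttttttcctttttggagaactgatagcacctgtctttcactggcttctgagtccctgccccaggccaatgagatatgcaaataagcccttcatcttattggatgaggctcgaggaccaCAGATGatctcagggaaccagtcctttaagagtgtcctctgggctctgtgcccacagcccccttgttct
Nr2e3: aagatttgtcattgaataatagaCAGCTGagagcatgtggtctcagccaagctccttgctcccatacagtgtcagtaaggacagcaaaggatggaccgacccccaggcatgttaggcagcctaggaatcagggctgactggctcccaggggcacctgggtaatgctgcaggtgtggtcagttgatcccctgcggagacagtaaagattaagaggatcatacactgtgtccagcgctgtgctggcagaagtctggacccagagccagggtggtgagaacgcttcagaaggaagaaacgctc
Samd7: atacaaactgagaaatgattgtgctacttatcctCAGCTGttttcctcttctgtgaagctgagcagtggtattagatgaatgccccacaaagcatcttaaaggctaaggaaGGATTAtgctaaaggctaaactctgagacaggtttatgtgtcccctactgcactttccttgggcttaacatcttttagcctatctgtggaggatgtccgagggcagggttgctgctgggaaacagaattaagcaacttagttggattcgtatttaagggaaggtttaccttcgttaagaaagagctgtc
Neurod1: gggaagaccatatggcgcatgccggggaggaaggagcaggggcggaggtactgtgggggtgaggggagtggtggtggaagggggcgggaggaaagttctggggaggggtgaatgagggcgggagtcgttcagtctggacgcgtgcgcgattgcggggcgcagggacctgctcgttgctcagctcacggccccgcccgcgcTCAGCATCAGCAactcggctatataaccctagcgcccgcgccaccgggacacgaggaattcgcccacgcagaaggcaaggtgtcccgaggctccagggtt
Esrrb inner start: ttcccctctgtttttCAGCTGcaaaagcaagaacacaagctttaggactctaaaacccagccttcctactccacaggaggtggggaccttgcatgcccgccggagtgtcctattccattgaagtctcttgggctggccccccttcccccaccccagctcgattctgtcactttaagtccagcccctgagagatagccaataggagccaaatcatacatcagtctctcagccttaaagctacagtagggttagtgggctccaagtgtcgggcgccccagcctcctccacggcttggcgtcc
Otx2 inner start: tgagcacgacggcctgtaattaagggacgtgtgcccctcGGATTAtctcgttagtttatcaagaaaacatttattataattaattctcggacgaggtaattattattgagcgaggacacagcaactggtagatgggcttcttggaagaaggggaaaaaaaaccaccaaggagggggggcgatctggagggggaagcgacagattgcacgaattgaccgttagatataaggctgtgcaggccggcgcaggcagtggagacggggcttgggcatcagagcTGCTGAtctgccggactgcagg
Otx2 outer start: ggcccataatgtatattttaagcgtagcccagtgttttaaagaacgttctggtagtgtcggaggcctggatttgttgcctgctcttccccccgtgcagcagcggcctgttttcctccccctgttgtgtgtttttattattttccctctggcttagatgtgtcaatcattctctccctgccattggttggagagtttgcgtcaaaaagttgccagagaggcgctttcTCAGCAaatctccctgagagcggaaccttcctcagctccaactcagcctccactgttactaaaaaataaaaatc

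The letters TAATCC stood in 3 of the 15 member promoters, those of Crx (with 2 matches), Samd7 and the inner start of Otx2, against 7.06% of 32851 promoters of the same length. The Crx matches lie on the opposite strand, so that the promoter reads GGATTA, and begin 94 and 21 bases before the start. TGCTGA was present in 5 of 15 (19.5% of all promoters), with 2 side-by-side matches in the Neurod1 promoter beginning 50 and 44 bases before the start. CAGATG was present in 2 of 15 (17.2% of all) and CAGCTG in 3 of 15 (16.3%). AGGTCA, the core of nuclear receptor sites, and TATTTAT, the middle of a Mef2 site, were present in 0 of 15 (16.3% and 5.60% of all), and GAAAGT, from the site of Prdm1, in 3 of 15 (14.3%). The neighbouring TGCTGA matches of Neurod1 share no base and print as 1 run of capitals, and no other matches overlap. The Mef2d window, which is not printed, holds a TGCTGA match, and that of Prdm1 holds none of these letters. Such hits are matches of letters, not measured binding.

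The loci of these genes were more open than most. Within each gene body and 5 kb either side, Nrl held 37.1 insertions per kb in the knockout and 37.1 in the wild type. The median of all genes was 4.92 per kb in the knockout and 4.87 in the wild type, and Nrl ranked 27 of 21887 with both libraries summed. Nr2e3 followed with 26.1 per kb in the knockout and 31.1 in the wild type (rank 141), and Neurod1 with 23.6 and 25.9 (rank 271). Crx held 23.9 per kb in each library (rank 319), and Mef2d 20.3 in the knockout and 22.2 in the wild type (rank 509). Otx2 held 15.5 in the knockout and 17.6 in the wild type (rank 1145). These 6 loci lay in the highest 10% of genes. Esrrb held 13.1 in the knockout and 12.3 in the wild type (rank 2373), just outside it. Prdm1 held 9.57 in the knockout and 9.55 in the wild type (rank 4374), and Samd7 9.36 and 9.07 (rank 4679). Rorb, the longest at 180588 bp, held 5.03 in the knockout and 5.48 in the wild type, near the median of all genes. In the summed libraries the exact 95% Poisson intervals of neighbours in this order overlapped for Neurod1 with Crx and for Prdm1 with Samd7, and for no other neighbours. Length bears on the order, since the 5 kb flanks make up most of a short locus such as that of Neurod1 (4000 bp) and little of Rorb.

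**Figure D1:**
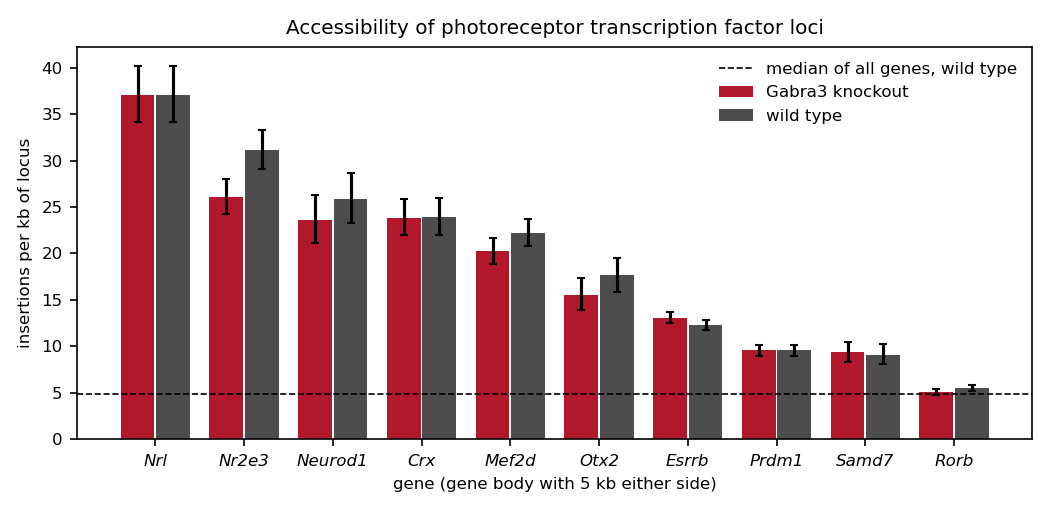
Insertions per kb of locus (y axis) for each gene (x axis), with the Gabra3 knockout library left of the wild type and exact 95% Poisson intervals, which cover counting error only. Nrl stands highest with 37.1 in each library, and Rorb lies near the median of all genes (dashed line, 4.87 in the wild type).

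Open regions, called on both libraries summed at equal depth, numbered 55 over the 10 loci, and every locus held at least 2. The median over the members was 5.5 regions, against 1 over all genes, and 38.7% of a member's insertions (median) fell into open regions, against 20.1% over all genes. Of the 55, 10 lay at an annotated start, 35 elsewhere in a gene body and 10 in the flanks. Their widths ran from 200 to 1100 bp with a median of 450 bp, against 400 bp over all 37033 regions of the genome. They held a median of 17 insertions per 100 bp of region in the summed libraries, against 7.75 over all regions, and 12 of the 55 were among the densest 10%. Called in each library at equal depth, 40 were found in the knockout and 45 in the wild type, 38 of them in both. Over the genome, the same calls gave 23955 regions in the knockout and 26726 in the wild type.

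Each of the 10 genes had 1 open region at an annotated start, and at 9 of these the region was called in each library alone. Over all protein-coding genes 68.72% had an open region anywhere in the locus. The share with one at an annotated start or gene end is not given here. The member start whose region was not called in each library alone was the inner start of Otx2, with 17 knockout and 14 wild-type insertions. The busiest point of these 10 regions lay between 1 and 87 bp from the start. Around the busiest annotated start of each gene, the 4 bins of 100 bp within 200 bp held 143 knockout and 156 wild-type insertions per bin over the 10 genes. The bins 1500 to 2000 bp away held 24.6 and 23.1, a ratio of 5.81 in the knockout and 6.75 in the wild type.

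Mef2d had the broadest and fullest start. Its region of 1100 bp (chromosome 3, 88141751 to 88142850) held 159 knockout and 184 wild-type insertions. Within 500 bp of the starts, Prdm1 held 91 in the knockout and 111 in the wild type, Neurod1 95 and 107, Crx 80 and 105, Nr2e3 87 and 90, Nrl 61 and 67, and Samd7 48 and 48, with the knockout count before the wild-type count. After the scaling given below, 7 of the 10 start regions were lower in the knockout library and 3 higher, and none had an interval that left out equality. The same split over the start regions of all genes is not given here. Summed, the start regions held 719 knockout and 803 wild-type insertions. Of the 8 starts with at least 100 insertions, 0 were 1.5-fold apart, against 0.597% of 8715 such starts higher in the knockout and 0.275% lower.

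Where the promoter table lists several starts for a gene, a single one of them was open. The table may not hold every start. At Esrrb the inner start, 60.5 kb into the gene body, held 90 knockout and 83 wild-type insertions within 500 bp. The outer start held 15 and 17 and had no open region. At Rorb the pattern was the other way round: the outer start held 80 knockout and 103 wild-type insertions and an open region, and the start 110.1 kb further in held 8 and 8. Near that inner Rorb start stood other open regions, the largest with its busiest point 1.92 kb downstream of it (69 knockout and 65 wild-type insertions). At Otx2 the start 2.54 kb into the gene body was open with 40 knockout and 36 wild-type insertions within 500 bp, and the innermost, at 4.91 kb, held 16 and 16.

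**Figure D2:**
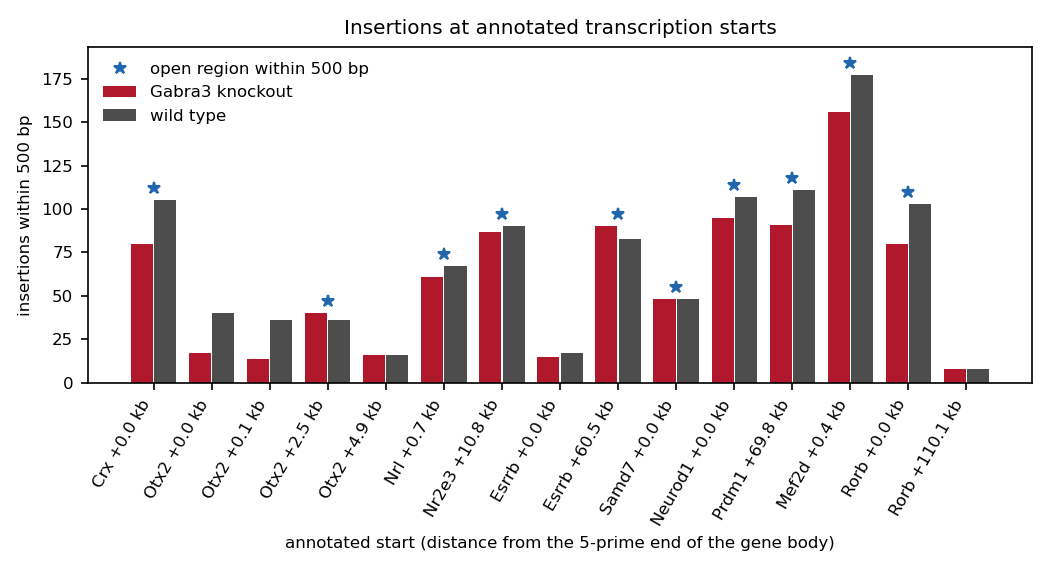
Insertions within 500 bp (y axis) of the 15 annotated starts (x axis, with the distance from the 5-prime end of the gene body), the Gabra3 knockout library left of the wild type; a star marks an open region within 500 bp. Esrrb is open at its inner start (90 and 83) and Rorb at its outer one (80 and 103), and the outer starts of Otx2 are the ones where the libraries differ most by ratio.

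In Esrrb, Nrl, Nr2e3, Samd7, Crx and Otx2 the fullest open region lay away from the start. The densest of all 55 was inside Esrrb, 86.3 kb downstream of the inner start (chromosome 12, 86507551 to 86508250), with 142 knockout and 140 wild-type insertions, at percentile 97.9 of the genome's regions by insertions per 100 bp. In Nrl the fullest region lay 3.01 kb downstream of the start (chromosome 14, 55520951 to 55521550; 98 knockout and 108 wild-type insertions), against 43 and 45 in the start region. Nr2e3 had a region 2.83 kb upstream of its start (chromosome 9, 59952651 to 59953250) with 86 knockout and 92 wild-type insertions. Samd7 had a region 2.18 kb downstream (chromosome 3, 30748251 to 30748850) that held 63 and 86, against 44 and 43 at its start.

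Crx was flanked by strong regions on each side. One of 1050 bp (chromosome 7, 15880801 to 15881850), with its busiest point 1.65 kb upstream of the Crx start, held 98 knockout and 111 wild-type insertions. It lies between the starts of Crx and of Crxos, a neighbouring homeobox gene on the opposite strand whose start is 2.66 kb away and which held 18 knockout and 15 wild-type insertions within 500 bp of it. The other lay 15.6 kb downstream of the start, beyond the far end of the gene, with 82 and 82. Prdm1 had a region 70.8 kb upstream of its annotated start (chromosome 10, 44529101 to 44529800), just outside the table's gene body, with 87 knockout and 99 wild-type insertions, close to the 88 and 106 of its start region. Mef2d had regions 3.11 kb and 5.68 kb downstream of its start with 51 and 65, and 79 and 92 insertions. Neurod1 had a region 1.59 kb downstream, inside the gene, with 53 and 59. Beyond the 5 kb flanks, 7 more regions had one of these genes as the nearest protein-coding gene within 50 kb, the fullest with 152 knockout and 172 wild-type insertions 5.36 kb beyond the Mef2d gene body, at the start of another RefSeq gene, 1700113A16Rik. Otx2 had a region of 34 and 34 insertions 1.49 kb upstream of its outer end, and beyond its flanks one of 49 and 40 and one of 56 and 48. Which gene a region away from starts serves was not measured. In the Nr2e3 locus a region with 39 and 56 insertions lay within 500 bp of the start of Gm7616, and the gene body of Cpne6 reached into the flank of Nrl.

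**Figure D3:**
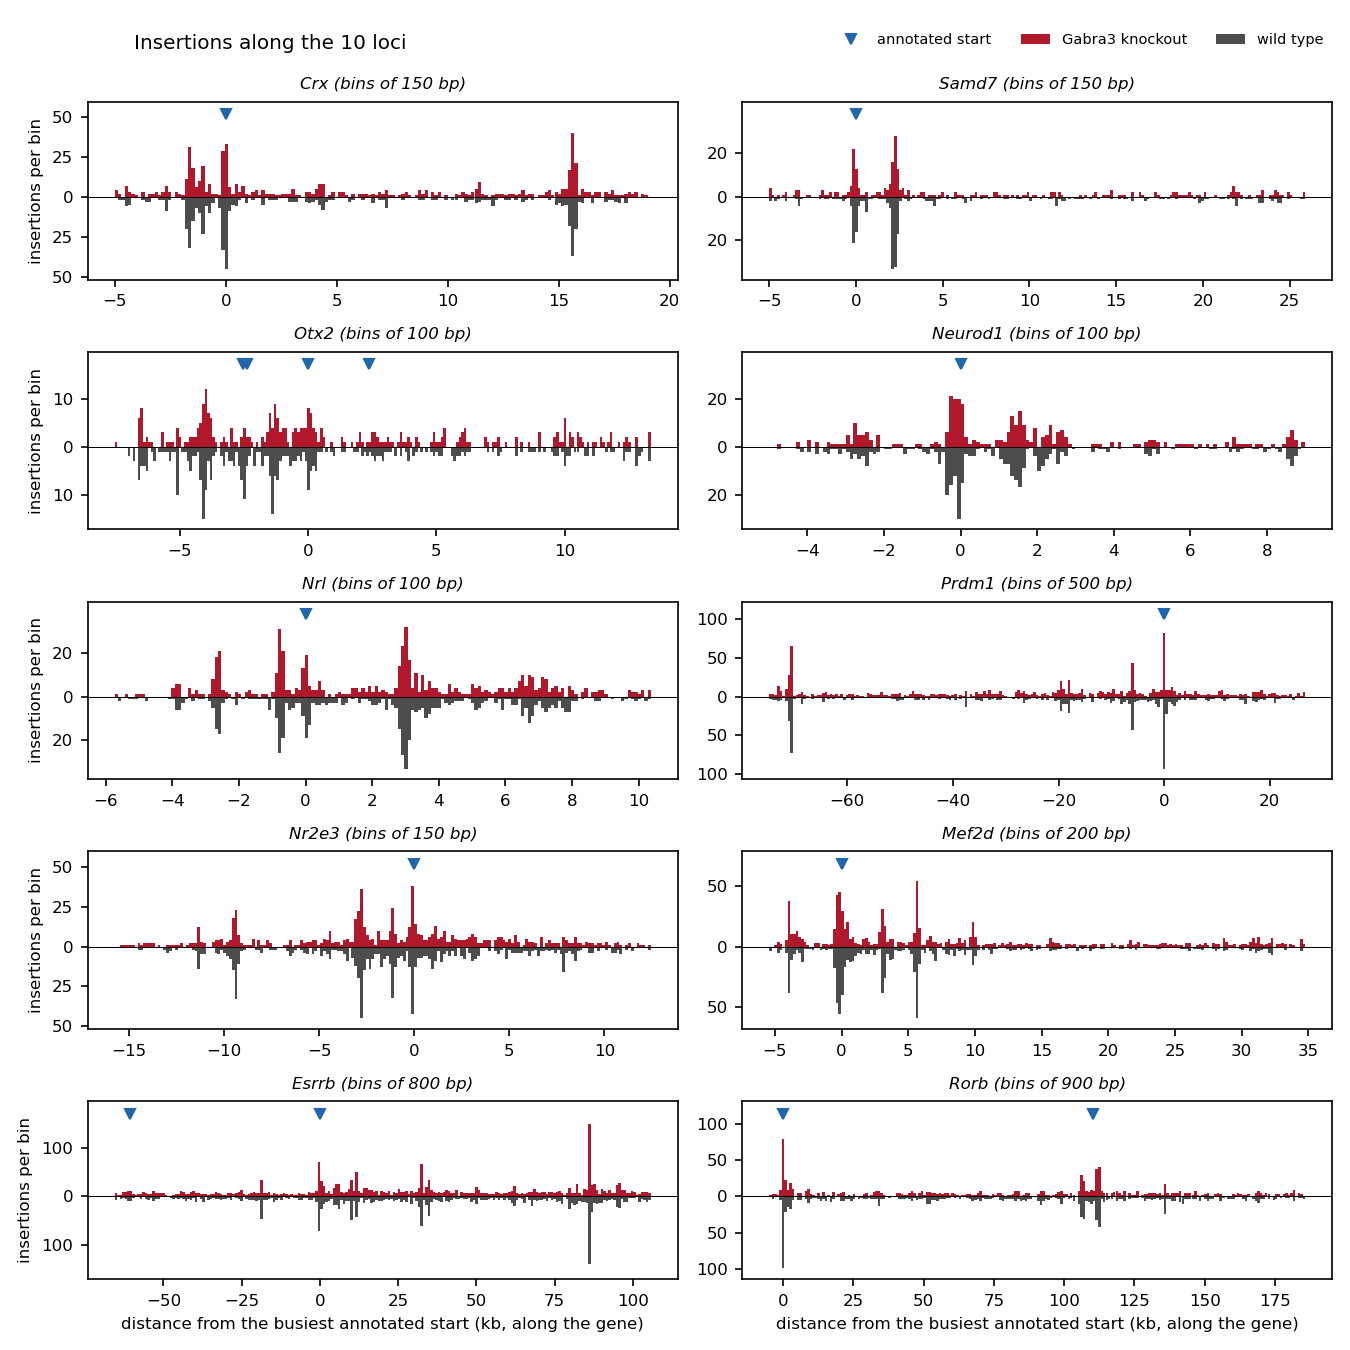
Insertions per bin (y axis) along each locus (x axis, kb from the busiest annotated start in the direction of the gene), Gabra3 knockout upwards and wild type downwards; triangles mark annotated starts and bin widths stand in the titles. Of the 55 open regions 38 were called in both libraries, among them the Esrrb region 86.3 kb downstream of its inner start and the Crx regions on each side of its gene.

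Knockout and wild-type loci were close in insertions. Each ratio is the log2 of the knockout count over that of the wild type, scaled by the insertions in all autosomal open regions, so that equal raw counts give 0.06. The ratios carry exact 95% Clopper-Pearson intervals that cover counting error only, and with 1 library per genotype they compare these libraries and have no replicate check or test. Summed over the 10 loci, 7814 knockout and 8055 wild-type insertions gave 0.015 (-0.030 to 0.060). Scaled to all autosomal insertions instead, which lowers every ratio by the same 0.06 (a shift of -0.06), the sum was -0.05 (-0.09 to -0.0012). A difference in the share of photoreceptor nuclei and a difference in openness per nucleus cannot be told apart here. At 2-fold with at least 100 insertions summed, 0 of the 10 loci were apart. Over all 16724 such loci 0.00598% were higher in the knockout and 0% lower. At 1.5-fold 0 of the 10 were apart, against 0.365% of all loci higher and 0.0658% lower. The median of the 10 locus ratios was -0.0041, against 0.059 over all loci, and 5 lay above 0 and 5 below, against 11106 above and 5618 below over all loci. On the other scale 3 of the 10 lay above 0 and 7 below.

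The single loci ran from -0.20 to 0.15. The locus of Nr2e3 was lowest, with 732 knockout and 874 wild-type insertions (-0.20, -0.34 to -0.05), and it was the 1 locus of 10 whose interval lay below 0, as for 1.31% of all loci. Its open regions held 260 and 317 (-0.23, -0.47 to 0.014), the start region alone 61 and 64, and the DNA outside open regions 472 and 557 (-0.18, -0.36 to -0.00024). Esrrb was highest, with 2232 and 2099 (0.15, 0.06 to 0.23), the 1 locus of 10 with its interval above 0, as for 8.42% of all loci. Its 12 open regions held 482 and 504 (-0.0052, -0.19 to 0.18), and the DNA outside them 1750 and 1595 (0.19, 0.09 to 0.29). Scaled to all autosomal insertions the Esrrb ratio was 0.086, and its interval reached 0. On that scale the DNA outside the Esrrb open regions stayed above 0 (0.13, 0.03 to 0.23). The Nr2e3 locus lay at -0.26 (-0.40 to -0.11). Crx held 573 knockout and 574 wild-type insertions (0.06, -0.11 to 0.23) and Nrl 593 and 594 (0.06, -0.11 to 0.22). Otx2 held 324 and 368 (-0.12, -0.34 to 0.09) and Rorb 958 and 1044 (-0.06, -0.19 to 0.06). With all autosomal insertions as the scale, Crx and Nrl were each at -0.0049. The intervals of the other loci also included 0: Samd7 held 289 knockout and 280 wild-type insertions (0.10, -0.14 to 0.35), Neurod1 330 and 362 (-0.07, -0.29 to 0.14), Prdm1 970 and 968 (0.06, -0.07 to 0.19), and Mef2d 813 and 892 (-0.07, -0.21 to 0.06).

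Counts in open regions leaned to the wild-type library. The 55 regions held 2488 knockout and 2733 wild-type insertions (-0.08, -0.16 to 0.0025), or -0.14 (-0.22 to -0.06) with all autosomal insertions as the scale. Their ratio was below 0 in 8 of the 10 genes, and ran from -0.23 (Nr2e3) to 0.06 (Nrl). The share of all genes with such a ratio below 0 is not given here, so this count has no background. In Samd7 the regions took 37.02% of the locus's knockout insertions and 46.1% of its wild-type ones, the largest gap, and in Crx 45.7% and 51.1%. The share was lower in the knockout for 8 of the 10 genes, among them Neurod1 with 47.6% and 47.8%, and higher for Otx2 (25.0% and 22.8%) and Nrl (46.9% and 46.6%). Outside open regions the loci held 5326 and 5322 (0.06, 0.0052 to 0.12), the ratio of equal counts under this scaling, and -0.0014 (-0.056 to 0.054) with all autosomal insertions as the scale. The DNA of Samd7 outside its regions held 182 and 151 (0.33, 0.0093 to 0.65), or 0.27 with an interval that included 0 on the other scale. The share over the genome was lower in the knockout too: 18.8% of autosomal knockout insertions fell into open regions, against 19.6% in the wild type. The part of this gap in the member values was not tested beyond the scaling. How many of all genes had a lower share in the knockout is not given here. Of the single regions 0 of 55 had an interval that left out 0, where 1.76% of all regions lay below and 1.22% above. By 2-fold 1 of 55 was lower in the knockout and 0 higher, against 5.63% of all regions lower and 2.91% higher. The region farthest apart was a weak one near the far end of Nr2e3, with 9 knockout and 21 wild-type insertions (-1.12, -2.47 to 0.024).

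**Figure D4:**
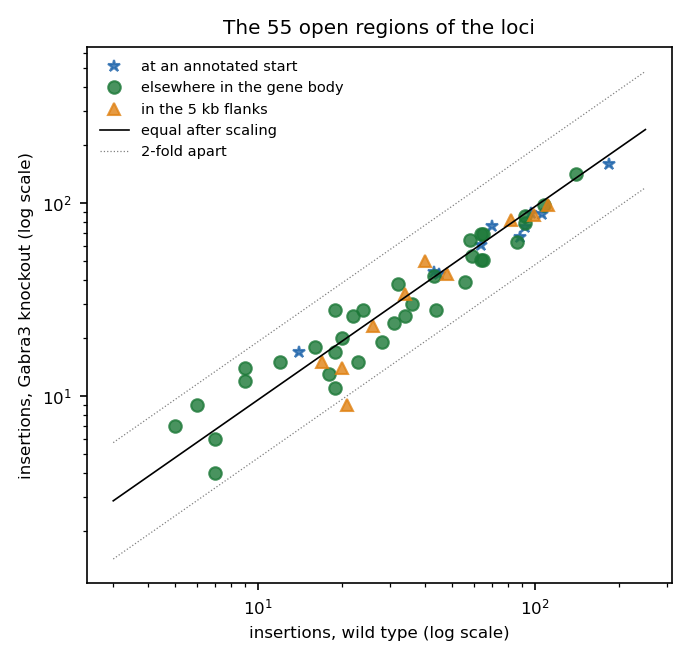
Knockout insertions (y axis) against wild-type insertions (x axis) in each of the 55 open regions, both on log scales, by position in the locus; the solid line marks equality after scaling and the dotted lines 2-fold. Apart from a weak region with 9 and 21 insertions the points lie within 2-fold.

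At the ends of the gene bodies the outer end of Otx2 stood out. Within 500 bp of it the knockout library held 17 insertions and the wild type 40, or -1.15 (-2.09 to -0.32) on the log2 scale. With no minimum on counts, 1 of the 10 ends was thus 2-fold lower in the knockout and 0 higher, against 7.91% of 21027 genes lower and 8.71% higher. An interval below 0 was found at 0.98% of them and one above 0 at 1.43%. The sum of 57 is under the 100 insertions asked of a call, so Otx2 was not counted as apart. By strand, it held 6 knockout and 27 wild-type insertions on the minus strand, and 11 and 13 on the plus strand. The outer start printed above held 14 and 36 within 500 bp and shares most of its bases with this end. The open regions of Otx2 together held 81 and 84 (0.0070, -0.45 to 0.46). The far end of Esrrb went the other way, with 13 knockout and 2 wild-type insertions (2.49, 0.62 to 5.95), where of all gene ends, each end counted, 1.08% had an interval above 0 and 0.779% below.

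Summed over the higher end of each gene, 552 knockout and 679 wild-type insertions gave -0.24 (-0.40 to -0.08), and 5 of the 10 ends held at least 100 insertions, of which 0 were apart by 2-fold (0% of 7509 ends higher and 0% lower). At 1.5-fold it was 0 of 5, against 0.519% higher and 0.226% lower, and 0 of 5 intervals left out 0, against 1.84% above and 0.959% below. Of these 5, 1 was above 0 and 4 below, with a median of -0.23. Over all 7509 such ends 4132 were above 0 and 3377 below, with a median of 0.023. The gene ends of the table are not the open starts of every member: for Prdm1, Nr2e3, Esrrb and Otx2 the open start lay 69.8, 10.8, 60.5 and 2.54 kb inside the gene body. For Prdm1 and Nr2e3 the end with more insertions was the 3-prime end, with 3 and 6, and 13 and 21 insertions. With the busiest annotated start of each gene in their place, a choice made after seeing the data, 828 knockout and 927 wild-type insertions gave -0.10 (-0.24 to 0.033).

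**Figure D5:**
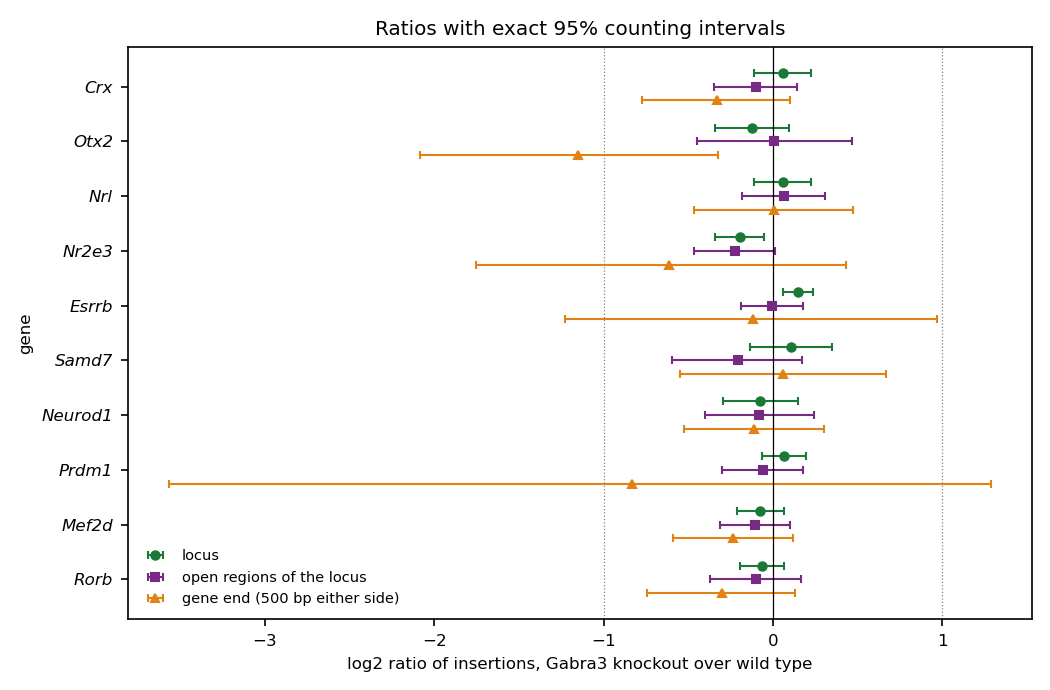
Log2 ratio of knockout over wild type (x axis) with exact 95% counting intervals for each gene (y axis), over the locus, its open regions and the gene end with more insertions; dotted lines mark 2-fold. The locus and open-region ratios lie between -0.23 and 0.15, and the gene end of Otx2 at -1.15.

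Other genes of the network were read in the same way. Over all protein-coding genes 68.72% had an open region in the locus. Of 10 further photoreceptor regulators, 10 had one and 5 a density in the highest 10% of genes. The fullest gene ends were those of Rax, a homeodomain factor of the eye field and photoreceptors (93 knockout and 82 wild-type insertions), and Nr1d1, a clock repressor (83 and 89). The largest locus ratios were those of Nr1d1 (368 and 440; -0.20, -0.40 to 0.0044) and Samd11, a partner of Samd7 (213 and 196; 0.18, -0.11 to 0.47). Of 21 photoreceptor genes, 21 had an open region, beside the same 68.72%. Rom1, an outer segment disc protein gene, held 183 and 217 at its end, and Gnat1, the rod transducin gene, 137 and 157. The gamma subunit genes of transducin had the largest locus ratios, Gngt2 with 41 and 63 (-0.55, -1.17 to 0.029) and Gngt1 with 165 and 210 (-0.29, -0.59 to 0.012). In these lists 0 loci were apart by 2-fold. Of the gene ends with at least 100 insertions, Rcvrn was 1.5-fold lower in the knockout (53 and 86; -0.63, -1.16 to -0.13). Pias3 was 1.5-fold higher (70 and 48; 0.60, 0.05 to 1.17). Over all 7509 such ends 0.226% were lower and 0.519% higher.

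Factors of other retinal cells had lower densities. The median density of 18 inner retinal factors was 3.42 insertions per kb in the knockout and 3.75 in the wild type, against 17.9 and 19.9 for the 10 members, and 0 of the 18 lay in the highest 10%. Isl1 had the fullest end, with 34 and 25. Prox1, a factor of horizontal and amacrine cells, had the largest locus ratio (163 and 234; -0.46, -0.76 to -0.17), followed by Vsx1 (58 and 47; 0.36, -0.22 to 0.95). Prox1 was the 1 locus with its interval below 0 among the 14 with at least 100 insertions, against 1.31% of all loci. An open region was found for 4 of 18 factors of other tissues (68.72% over all genes), and the ends of Myod1 and Sox17 held 10 and 11, and 9 and 9. Their largest locus ratios were 0.31 for Myod1 (-0.17 to 0.79, from 82 and 69) and 0.23 for Tbx20 (-0.20 to 0.66, from 100 and 89). Of the 10 such loci with at least 100 insertions, 8 lay above 0 and 2 below, against 11106 and 5618 over all loci. The interval lay above 0 for 1 of them, Pax5 (0.21, 0.10 to 0.31, from 1581 and 1426), as for 8.42% of all loci. These lists were described, not tested against the members.

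The tissue label was read against markers. Of 5 rod markers 5 had an open region, and their ends ran from 9 knockout and 19 wild-type insertions (Sag) to 202 and 209 (Reep6). The ends of 4 cone genes held 10 to 18 knockout and 5 to 19 wild-type insertions. An open region was found at 3 of 4 bipolar cell markers and 3 of 3 of Muller glia, against 68.72% of all genes. The bipolar ends ran from 4 knockout and 5 wild-type insertions (Grm6) to 111 and 97 (Prkca). Those of Muller glia ran from 9 and 10 (Slc1a3) to 100 and 111 (Glul). Markers of other tissues were mixed: Alb (0 and 1), Rpe65 (2 and 1), Gata1 (1 and 2) and Ptprc (2 and 1) were nearly empty, while Mitf (124 and 118), Bfsp1 (173 and 175) and Ckm (66 and 85) had well-filled ends in both libraries. An open region was found at 3 of 4 markers of retinal pigment epithelium (ends summed, 131 knockout and 125 wild-type insertions), 2 of 3 of lens (188 and 193), 1 of 5 of microglia and blood (32 and 35) and 2 of 4 of muscle and liver (102 and 121), against 68.72% of all genes. Of these 16 markers, 2 had a locus interval above 0, where 8.42% of all loci with at least 100 insertions had one. Cryaa, a lens crystallin gene, held 163 and 125 (0.44, 0.10 to 0.79). Rpe65, of the pigment epithelium, held 45 and 28 (0.73, 0.03 to 1.48). The Rpe65 sum was under the 100 insertions asked of a call, and 0 lay inside its interval once shifted to the other scale. The part of other cells in the member values was not tested. The Gabra3 gene body held 121 knockout and 126 wild-type insertions (-0.06, -0.43 to 0.31, scaled to all autosomal insertions), so a loss of the whole gene body was not seen. With no allele named, a smaller change was not checked.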

How the data were processed

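Each library came as 1 line per aligned read, with its start, end and strand on GRCm38 (mm10). The score column, as deposited, holds each read's mapping quality, judged from its whole-number values. Trimmomatic 0.33, BWA and bedtools 2.23.0 are named in the submitters' processing notes, without their roles. Any filtering before deposit is not given in the sources used here.

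From these reads, those with mapping quality of at least 10 were kept, 5-prime ends were shifted by +4 and -5 bp for Tn5, and 1 insertion was kept per position and strand (repeats were 9.41% of the knockout and 11.0% of the wild-type reads kept). To call open regions, a window of 200 bp was moved along by 50 bp and kept where its Poisson p fell below 1e-05, given whichever mean was higher, that of the genome or that of 10000 bp around it. Windows closer than 150 bp were merged. Gene bodies and starts came from RefSeq (GRCm38.p6). Ratios used a pseudocount of 0.5. Intervals are exact at 95% and cover counting error only, since each genotype had 1 library. Reads carried no molecular identifiers, so repeats were judged by position and strand alone. Calling was checked on simulated open regions over an even background, and ratio intervals on counts drawn from the binomial split that they assume. Such data are simpler than real reads, so these checks cover the working of the code alone. Python 3.11.15, numpy 2.4.6, scipy 1.17.1, pandas 2.3.3 and matplotlib 3.10.9 were used. From each list, the 2 genes with the fullest ends and the 2 with the largest locus ratios (at least 100 insertions summed) were named. A gene that this rule picks is not reported here. Members and lists were chosen with earlier results of these data known.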

Additional observations from a re-analysis of the deposited data

How the results depend on the processing

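The sum over the 10 loci (0.015) lay near 0 and changed sign with the setting: it was -0.037 on the plus strand alone, 0.066 on the minus strand alone, -0.046 scaled to all autosomal insertions and -0.034 without Esrrb, whose locus held most insertions. The cause was not tested. With no minimum on insertions, 1 gene end (Otx2) was apart in place of 0, because that setting admits low counts. Gene ends summed kept their direction in all 11 alternatives (-0.30 to -0.10), and so did open regions summed in 10 (-0.14 to -0.02). Open regions numbered 55 (41 to 57), and 7 members had one at a gene end (6 to 8), against 10 at an annotated start. Of 210 single-member values under alternatives, 207 moved by less than their counting interval. The others were the Otx2 gene end on the plus strand alone (-0.17, against -2.02 on the minus strand) and at its busiest annotated start (0.21), and the Esrrb locus on the plus strand alone (0.06). The use of annotated starts and the sum without Esrrb were chosen after seeing the data. No paired analysis was possible because each genotype had 1 library. For the same reason no replicate could be left out, and differences between mice cannot be told apart from the genotype. The Otx2 gene end rests on 57 insertions.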

Other observations

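By levels over both libraries summed, the protein-coding genes nearest to a member were found by Euclidean distance over 4 log2 measures: insertions per kb, insertions at the fuller end, open regions and the share of insertions in them. Nearest to Crx were Lbhd1 (distance 0.043) and Junb (0.25), to Nrl Rgs9bp (0.32) and Rbp3 (0.36), and to Otx2 Sema7a (0.16) and Ccnd1 (0.38). With 2 libraries this describes their levels and not a shared pattern over samples.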
